A study of Homo sapiens with 35 samples.

Results

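The subject is the knockdown of CDK8 in low glucose medium, in HCT116, a cell line established from a human colorectal carcinoma. Gene expression was compared between 3 arrays of cells with a short hairpin RNA against CDK8 (shCDK8) and 3 arrays of cells with a non-target hairpin (shControl), both after 24 h in low glucose DMEM. These 6 arrays were chosen by their titles, out of 35 arrays in 14 groups. Cells were plated in serum-containing McCoy's 5A medium before treatment. 3 further comparisons use other arrays of the series. shCDK8 cells in low glucose were set against cells with a hairpin against CDK19 (shCDK19) in low glucose (3 arrays). shControl cells in low glucose were set against shControl cells in high glucose DMEM (3 arrays), also after 24 h. The shCDK8 effect in low glucose was set against the shCDK8 effect in untreated cells in normal growth (3 arrays of each line). Each target is represented by a line with 1 hairpin, so what the loss of the target does and what else sets that line apart cannot be told apart. The labels give no glucose concentration. They do not say whether the arrays of a group came from separate cultures, so p-values here measure the spread between arrays, which may be technical.

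CDK8 is a cyclin-dependent kinase. With cyclin C, MED12 and MED13 it forms the kinase module of Mediator, the complex that relays signals from DNA-bound transcription factors to RNA polymerase II. CDK19 is its paralogue and can take its place in the module. CDK8 is amplified in a share of colorectal carcinomas, where it is known as a coactivator of beta-catenin, and it is known both to activate and to restrain transcription, depending on the gene.

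In low glucose the shCDK8 cells differed from shControl cells in 22.3% of the genes tested, but most differences were small. The largest rises were in VSNL1, SEMA3A, TM4SF18, TNFSF4 and TNFSF18. The largest falls were in CYP4F11, DPP4, SLC38A5 and SPTSSB. Of the sterol and fatty acid synthesis genes 16 of 24 were called lower, of the replication-dependent histone genes 15 of 24, of the mitotic genes 16 of 43 and of the metallothioneins 13 of 13. The share called lower over all genes was 10.2%. Of 23 genes of glycolysis and glucose uptake 2 (8.7%) were called higher and 3 (13%) lower, against 12.1% and 10.2% of all genes. Among them the glucose transporter genes SLC2A1 and SLC2A3 changed in opposite directions.

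The deposited values are log2 hybridisation intensities, with a floor of 4.32 and a ceiling of 14.29 shared by all arrays. The 75th percentile of the 6 arrays lay between 9.21 and 9.25, and 8.92% to 9.24% of their rows lay at the floor. Over all genes the arrays correlated with r of 0.994 to 0.996 within a group and 0.990 to 0.991 between the groups. Array values are bulk levels, in which fewer cells of a type and less RNA per cell cannot be told apart. The cells carried the markers of their label. Of 9 measured markers of colon carcinoma epithelium, 8 lay above the median of all genes in both groups. Between the groups 2 of these 9 were called higher, the simple epithelial keratins KRT8 (0.27) and KRT18 (0.45), and 3 lower, CLDN4 (-0.60), CLDN7 (-0.18) and KRT19 (-0.18), with a median change of -0.11. Summed on the linear scale, these markers gave 42111 to 43744 in shCDK8 arrays and 41257 to 42468 in shControl arrays. The 10 fibroblast markers summed to 810 to 916 in shCDK8 arrays and 894 to 972 in shControl arrays, with 0 called, although 1 was called lower without shCDK8 replicate 3 or shControl replicate 1. The 9 endothelial markers summed to 546 to 613 in shCDK8 arrays and 567 to 593 in shControl arrays. The 11 leukocyte markers summed to 2731 to 2953 in shCDK8 arrays and 1883 to 2082 in shControl arrays, through LYZ and CD68, while PTPRC, which defines leukocytes, stayed near the floor at 4.42 in shCDK8 cells and 4.44 in shControl cells.

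The target of the hairpin was lower in every shCDK8 array. The CDK8 probe cluster, which the array annotation shares with ADRA1B, read 8.21, 8.43 and 7.96 in shCDK8 cells, against 10.35, 10.21 and 10.43 in shControl cells. The groups did not overlap, and the difference was -2.13 ± 0.11 on the log2 scale (SE, 3 arrays per group), a 4.38-fold lower level (limma, adjusted p = 5.31e-06). CDK8 read 10.30, 10.55 and 10.33 in shCDK19 cells. The paralogue CDK19 read 9.61, 9.93 and 9.84 in shCDK8 cells and 9.84, 9.73 and 9.84 in shControl cells. These values overlapped, with a difference of -0.01 ± 0.09 (adjusted p = 1). In the kinase module, 1 of 6 measured genes besides CDK8 was called higher and 2 lower. The one called higher was MED12, with a change of 0.29 ± 0.05 (limma, adjusted p = 0.00337). The 2 called lower, MED13 and CCNC, did not hold: 0 were called lower without shCDK8 replicate 1 or shControl replicate 1, and 1 without shCDK8 replicate 3 or shControl replicates 2 or 3, while 2 were called higher without shCDK8 replicate 3. Of 24 core Mediator genes 3 were called higher and 1 lower, against 12.1% and 10.2% of all genes. 1 was called higher without shCDK8 replicate 1 or shControl replicate 3. MED21, a subunit of the middle module, was lower by -0.30 ± 0.06, and MED14, the scaffold of the core, was higher by 0.23 ± 0.04.

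Across 18404 genes, 2222 (12.1%) were called higher and 1885 (10.2%) lower in shCDK8 cells at an adjusted p under 0.05 (limma, Benjamini-Hochberg over all genes). Together that is 4107 genes or 22.3%. The median change over all genes was -0.0017 and the median size of a called change was 0.34 on the log2 scale. At least 2-fold higher were 148 genes (0.804%), and at least 2-fold lower were 77 (0.418%). At least 4-fold changes were rarer, with 22 genes higher and 10 lower. The array values of shCDK8 and shControl cells did not overlap for 6767 genes (36.8%).

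The highest gene was VSNL1, which encodes a neuronal calcium sensor. It read 10.98, 11.18 and 11.12 in shCDK8 cells, against 5.90, 5.58 and 5.96 in shControl cells. All shCDK8 arrays were far above all shControl arrays, a 38.8-fold difference (5.28 ± 0.10 log2, limma, adjusted p = 5.3e-10). SEMA3A, a secreted guidance semaphorin, read 11.94, 12.12 and 11.96 in shCDK8 cells, against 7.22, 7.46 and 7.35 in shControl cells. Its groups were as clearly apart, with a rise of 4.66 ± 0.09 or 25.3-fold. TM4SF18, of the tetraspan L6 membrane protein family, read 9.86, 10.24 and 9.79 in shCDK8 cells, against 5.33, 5.44 and 5.30 in shControl cells, a rise of 4.60 ± 0.13 or 24.3-fold. A second gene of that family, TM4SF1, read 9.25, 9.38 and 9.39 in shCDK8 cells, against 5.84, 5.84 and 5.69 in shControl cells. It rose 11.7-fold, and its shCDK8 arrays were again all above the shControl arrays.

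2 ligands of the tumour necrosis factor family rose strongly. TNFSF4, the OX40 ligand that costimulates T cells, read 9.62, 9.84 and 9.82 in shCDK8 cells, against 5.53, 5.59 and 5.39 in shControl cells. The groups lay 4.25 ± 0.08 apart, 19.1-fold. TNFSF18, the ligand of the GITR receptor, read 8.62, 8.80 and 8.46 in shCDK8 cells, against 4.89, 4.77 and 4.94 in shControl cells. Its shControl values were close to the floor, and it rose by 3.76 ± 0.11. Of the 15 measured ligands of the family, 3 (20%) were called higher and 0 lower, against 12.1% and 10.2% of all genes. The third was TNFSF9, with a change of 0.19 ± 0.04. Without shCDK8 replicate 3, 2 ligands were called lower.

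SLC5A1 encodes the sodium-coupled glucose transporter of the small intestine. It read 8.52, 8.59 and 8.67 in shCDK8 cells, against 5.67, 5.70 and 5.79 in shControl cells. The groups did not overlap, and the rise was 2.88 ± 0.13 or 7.34-fold (limma, adjusted p = 2.22e-07). In shControl cells its level did not change past the threshold between low and high glucose (0.22, adjusted p = 0.239). Also among the 20 highest genes were CALB2, the calcium-binding protein calretinin, with a change of 3.15, and EDA2R, a receptor of the tumour necrosis factor family, with a change of 2.93. EHF, an epithelial ETS transcription factor, rose by 2.74 ± 0.06. GRIN2B, an NMDA receptor subunit, rose by 2.38 ± 0.10. EFNB2, a membrane-bound ephrin, rose by 2.17 ± 0.08, FGF9, a secreted growth factor, by 2.15 ± 0.09, and SNAI2, a repressor of epithelial genes, by 2.04 ± 0.09. ARSJ (an arylsulfatase), SLCO3A1 (an organic anion transporter), AOAH (an enzyme that deacylates lipopolysaccharide), EPB41L4A and KIAA0040 were the others, with changes from 2.09 to 2.84.

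GPR15, a chemoattractant receptor known from T cells that home to the colon, stood out for its level in high glucose. It read 8.21, 8.17 and 8.24 in shCDK8 cells in low glucose, against 6.27, 5.97 and 5.60 in shControl cells in low glucose and 8.52, 8.45 and 8.57 in shControl cells in high glucose. The shCDK8 arrays in low glucose were thus all above the shControl arrays in low glucose, by 2.26 ± 0.14, and all below those in high glucose. The low glucose arrays of shControl cells are shared by both comparisons.

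**Figure D1:**
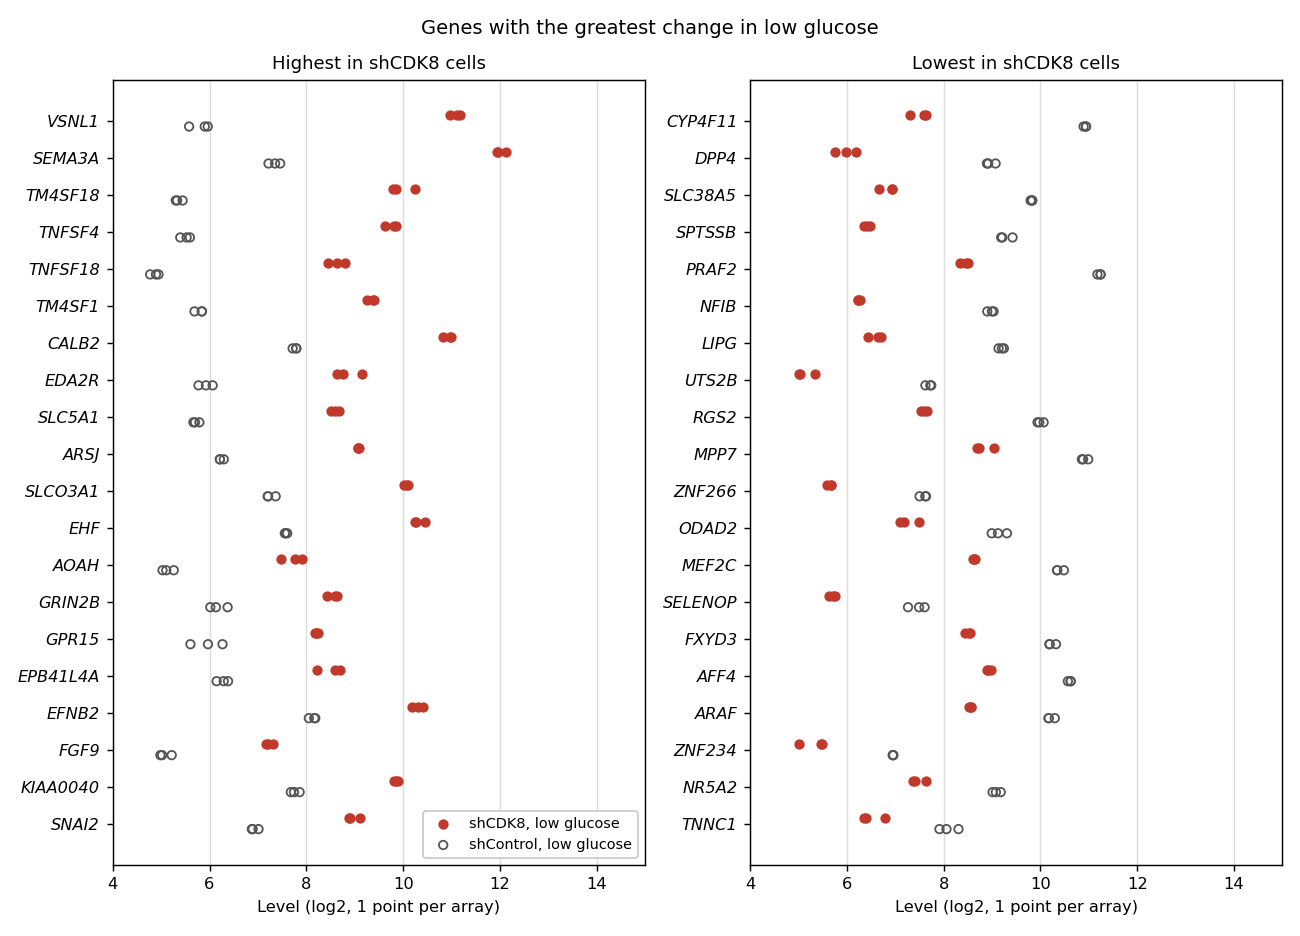
The 20 highest and 20 lowest genes of the comparison, with deposited log2 values on the horizontal axis. Filled points are the 3 shCDK8 arrays and open points the 3 shControl arrays in low glucose. Genes were required to have groups that do not overlap, and VSNL1 shows the widest gap, with shCDK8 arrays near 11 and shControl arrays under 6.

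The lowest gene was CYP4F11, a cytochrome P450 that hydroxylates long-chain fatty acids. It read 7.30, 7.63 and 7.59 in shCDK8 cells, against 10.94, 10.94 and 10.89 in shControl cells. All shCDK8 arrays were below all shControl arrays, by -3.42 ± 0.08 or 10.7-fold (limma, adjusted p = 2.99e-09). CYP4F11 has close relatives in the genome whose transcripts its probes may also bind. DPP4, the dipeptidyl peptidase of the enterocyte brush border, read 5.77, 5.98 and 6.19 in shCDK8 cells, against 9.07, 8.89 and 8.92 in shControl cells. The change was -2.98 ± 0.09 and the groups were again apart. SLC38A5, a sodium-coupled glutamine transporter, read 6.94, 6.67 and 6.94 in shCDK8 cells, against 9.83, 9.80 and 9.83 in shControl cells, a change of -2.97 ± 0.07. The change of SPTSSB, a small subunit of serine palmitoyltransferase, was -2.86 ± 0.06.

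PRAF2, a prenylated Rab acceptor family member, changed by -2.78 ± 0.04 and NFIB, a nuclear factor I transcription factor, by -2.74 ± 0.08. LIPG, the endothelial lipase, changed by -2.60 ± 0.07 and RGS2, which quenches G protein signalling, by -2.40 ± 0.05. The transcription factor MEF2C changed by -1.77 ± 0.05. AFF4, the scaffold of the super elongation complex through which paused RNA polymerase II is released, changed by -1.68 ± 0.04, and the kinase ARAF, of the RAF family, by -1.66 ± 0.05. SELENOP, the selenium transport protein, changed by -1.76 ± 0.09, FXYD3, a regulator of the sodium pump, by -1.72 ± 0.09, and NR5A2, a nuclear receptor of gut and liver, by -1.62 ± 0.10. The remaining genes among the 20 lowest were MPP7, ODAD2, ZNF266, ZNF234 and TNNC1, from -2.08 to -1.58.

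UTS2B, which encodes a urotensin-related peptide, read 5.03, 5.35 and 5.02 in shCDK8 cells in low glucose, against 7.74, 7.62 and 7.73 in shControl cells in low glucose and 5.90, 6.28 and 6.34 in shControl cells in high glucose. The shCDK8 arrays were below both sets of shControl arrays. The change between the lines in low glucose was -2.56 ± 0.14, and shControl cells had 1.52 more in low than in high glucose. shCDK8 and shCDK19 cells differed in UTS2B by 0.29 in low glucose, which did not pass the threshold (adjusted p = 0.166).

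Glucose enters most cells through facilitative transporters and is broken down by glycolysis, and arrestin-domain genes and TXNIP are known to follow glucose supply through the MondoA and ChREBP factors. Of 23 measured genes of glycolysis and glucose uptake, 2 were called higher and 3 lower, with a median change of -0.02. Their shares are close to those of all genes. SLC2A3, which encodes the high-affinity transporter GLUT3, read 8.45, 8.42 and 8.46 in shCDK8 cells, against 9.96, 9.74 and 9.60 in shControl cells. The shCDK8 arrays were all lower, by -1.32 ± 0.08 or 2.5-fold (limma, adjusted p = 1.39e-06), although probes for SLC2A3 may also bind transcripts of its near copy SLC2A14. SLC2A1, the widely expressed transporter GLUT1, read 12.94, 12.88 and 12.85 in shCDK8 cells, against 12.56, 12.53 and 12.49 in shControl cells. It rose by 0.36 ± 0.04 without overlap. ALDOC, an aldolase, changed by -1.17 ± 0.09. Without single arrays 1 to 3 genes of this list were called higher and 2 to 5 lower, with 1 higher without shCDK8 replicate 3 or shControl replicates 2 or 3 and 5 lower without shControl replicate 3.

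Among 10 glucose-responsive arrestins and their regulators 3 (30%) were called higher and 1 (10%) lower, against 12.1% and 10.2% of all genes. TXNIP, which restrains glucose uptake, read 5.51, 5.43 and 5.60 in shCDK8 cells and 5.53, 5.45 and 5.43 in shControl cells. Its groups overlapped at a dim level (0.04 ± 0.09, adjusted p = 0.799). ARRDC4, its arrestin-domain relative, read 7.09, 6.84 and 6.98 in shCDK8 cells in low glucose, against 6.37, 6.56 and 6.69 in shControl cells in low glucose and 7.87, 7.65 and 7.65 in shControl cells in high glucose. The shCDK8 arrays lay between both sets of shControl arrays, 0.43 ± 0.12 above those in low glucose (limma, adjusted p = 0.0236). This call was lost without shCDK8 replicate 1 (adjusted p = 0.0862), shCDK8 replicate 3 (adjusted p = 0.0619), shControl replicate 1 (adjusted p = 0.0872) or shControl replicate 2 (adjusted p = 0.0579). ARRDC3 rose by 0.32 ± 0.07. MLXIPL, which encodes ChREBP, changed by -0.45 ± 0.05.

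In the lists of other energy metabolism 0 genes were called with a change of at least 2-fold. Over all genes 12.1% were called higher and 10.2% lower at any size of change. Of 11 genes of AMP-activated kinase and its upstream kinases 1 was called higher and 1 lower: STRADA, an adaptor that activates LKB1, rose by 0.32 ± 0.04 and PRKAA1, a catalytic subunit, changed by -0.20 ± 0.04. Of 36 genes of oxidative phosphorylation 1 was called higher and 3 lower, with a median of -0.01. NDUFS1, the largest subunit of complex I, changed by -0.32 ± 0.06. 1 of the 36 was called lower without shCDK8 replicate 1 or shControl replicate 2, and 0 were called higher without shCDK8 replicates 1 or 3 or shControl replicates 1 or 2. Of 19 genes of pyruvate dehydrogenase and the citric acid cycle 3 were called higher and 2 lower. SDHD, a membrane anchor of succinate dehydrogenase, changed by -0.29 ± 0.05. In this list 1 was called higher without shCDK8 replicate 3 or shControl replicates 1 or 2, and 1 lower without shCDK8 replicates 1 or 3 or shControl replicates 2 or 3. Of 15 genes of fatty acid oxidation 3 were called higher and 1 lower, with CPT1A and CPT2, which carry fatty acids into mitochondria, higher by 0.30 ± 0.06 and 0.23 ± 0.05. The 1 lower became 0 without shCDK8 replicate 3 or shControl replicates 1 or 3, and 2 without shControl replicate 2. Of 7 pentose phosphate genes 1 was called higher and 2 lower, and PGLS, the lactonase of the pathway, rose by 0.65 ± 0.12. The 2 lower became 0 without shControl replicate 1, and 1 without shCDK8 replicates 2 or 3 or shControl replicate 3. Of 10 hexosamine and glycosylation genes 1 was called higher and 2 lower, and OGT, the enzyme that attaches single N-acetylglucosamine units to proteins, changed by -0.30 ± 0.04. In that list 2 were called higher without shCDK8 replicates 1 or 2, and 1 lower without shCDK8 replicates 1 or 2 or any 1 of the shControl replicates.

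Sterol synthesis runs from acetyl-CoA to cholesterol and is switched on together with fatty acid synthesis by the SREBP transcription factors when membrane sterol is low. Of 24 measured genes of sterol and fatty acid synthesis, 16 fell and 1 rose, with a median change of -0.29. That is 66.7% lower, against 10.2% of all genes. SQLE, squalene epoxidase, read 10.56, 10.56 and 10.58 in shCDK8 cells, against 11.59, 11.57 and 11.59 in shControl cells. The arrays of each group were nearly equal, and the change was -1.02 ± 0.03, with shCDK8 cells 2.03-fold lower (limma, adjusted p = 2.19e-08). HMGCS1, the synthase that makes the precursor of mevalonate, read 9.28, 9.39 and 9.25 in shCDK8 cells, against 10.08, 10.08 and 10.12 in shControl cells. It too was lower in every shCDK8 array, by -0.79 ± 0.06. ELOVL6, an elongase of saturated fatty acids, read 10.42, 10.60 and 10.47 in shCDK8 cells, against 11.30, 11.27 and 11.42 in shControl cells, a change of -0.83 ± 0.07.

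INSIG1, which retains the SREBP precursor in the endoplasmic reticulum and is itself a target, changed by -0.82 ± 0.04. Further down the pathway CYP51A1 changed by -0.61, MSMO1 by -0.59, EBP by -0.56, SC5D by -0.40 and DHCR7 by -0.31. The regulators SREBF2 and SREBF1 changed by -0.47 and -0.15. Members that were not called included FASN (-0.01) and SCD (-0.10), which make saturated and monounsaturated fatty acids. The member that rose was MVD (0.19), a call that was lost without shCDK8 replicates 1 or 3 or shControl replicates 2 or 3. Leaving out any 1 array of the comparison left 14 genes called lower. Over all genes, 2559 (13.9%) were higher and 3179 (17.3%) lower in low than in high glucose in shControl cells, and 62 (0.337%) and 128 (0.696%) by at least 2-fold. Of the 24 sterol genes 15 were higher in low than in high glucose and 1 was lower, and these values share the shControl low glucose arrays with the knockdown comparison. Against shCDK19 cells in low glucose, 6 of the 24 were higher and 5 lower in shCDK8 cells, against 14.7% and 11.2% of all genes.

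The promoter of SREBF2 is shown because it was the only promoter of the list with a sterol regulatory element of the letters TCACNCCAC (either strand), which was added to the motifs after the sterol genes had been seen. The sequence is from RefSeq, GRCh38.p14, chr22:41832855-41833154 on the plus strand, from 250 bases before to 50 after the gene's start, with the match in capitals.
SREBF2: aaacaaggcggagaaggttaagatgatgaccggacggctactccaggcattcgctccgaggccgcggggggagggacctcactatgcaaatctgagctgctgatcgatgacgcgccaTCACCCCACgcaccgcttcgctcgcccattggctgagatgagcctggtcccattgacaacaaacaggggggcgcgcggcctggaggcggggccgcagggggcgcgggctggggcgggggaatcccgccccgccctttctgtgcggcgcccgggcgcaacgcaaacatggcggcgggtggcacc
This element was in 1 of 22 promoters of the list (4.55%) and in 1.14% of 14228 promoters of all genes tested. In the other 21 promoters these letters were not in the window.

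ATF4 is the transcription factor of the integrated stress response, which raises amino acid synthesis and uptake genes. Of 37 measured ATF4 targets 14 (37.8%) fell and 3 rose, against 10.2% and 12.1% of all genes, with a median change of -0.10. INHBE, an inhibin subunit, read 7.08, 7.08 and 7.33 in shCDK8 cells, against 7.84, 8.32 and 8.30 in shControl cells. Its shCDK8 arrays were all lower, by -0.99 ± 0.16. ALDH1L2, of mitochondrial one-carbon metabolism, changed by -0.86 ± 0.10, SHMT2, the mitochondrial serine hydroxymethyltransferase, by -0.57 ± 0.05, and XPOT, the tRNA exporter, by -0.52 ± 0.11. ASNS (asparagine synthetase) changed by -0.35, DDIT3 (the factor CHOP) by -0.46 and SLC7A11 (the cystine transporter) by -0.47. ATF4 itself was not called (-0.05). Of the 3 that rose, ADM2 and EIF4EBP1 changed by 0.44 and 0.38. In shControl cells 33 of the 37 were higher in low than in high glucose, against 13.9% of all genes, and 0 lower, again with shared arrays. The ATF4 composite element TGATGNAA (either strand) was in 7 of 30 promoters of the list (23.3%) and 2.54% of all promoters.

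Of 24 endoplasmic reticulum chaperones and genes of the unfolded protein response 9 (37.5%) were called lower and 2 (8.33%) higher, with a median of -0.12. Over all genes 10.2% were called lower and 12.1% higher. The count of 9 was fragile. It was 6 without shCDK8 replicate 1 and without shCDK8 replicate 2, and 3 without shCDK8 replicate 3. It was 5 without shControl replicate 1 and without shControl replicate 2, and 4 without shControl replicate 3. The 2 higher became 1 without any 1 array but shCDK8 replicate 3. HSP90B1, the chaperone GRP94, changed by -0.25 ± 0.04, and CRELD2, a disulphide isomerase relative induced by this stress, rose by 0.29 ± 0.05. Of 13 amino acid and glutamine transporters 7 (53.8%) fell and 2 (15.4%) rose. Besides SLC38A5, the glutamate transporter SLC1A3 read 7.71, 7.69 and 7.35 in shCDK8 cells, against 9.01, 9.02 and 9.15 in shControl cells. It fell by 1.48 ± 0.09, with no overlap, while SLC1A1, another glutamate transporter, rose by 1.05 ± 0.09. SLC7A8, a neutral amino acid exchanger, changed by -0.96 ± 0.07. Without any 1 array, 1 transporter of this list was called higher.

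Among 20 genes of lysosome and autophagy 6 (30%) were called lower and 1 (5%) higher, against 10.2% and 12.1% of all genes. NEU1, the lysosomal sialidase, changed by -0.76 ± 0.05, and CTSB, the protease cathepsin B, rose by 0.35 ± 0.05. Over the single arrays left out, 4 to 7 of these genes were called lower. Among 18 targets of FOXO and of growth factor withdrawal 7 (38.9%) were called lower and 2 (11.1%) higher. YPEL3, a growth-suppressive zinc-binding protein, read 6.45, 6.51 and 6.81 in shCDK8 cells, against 8.14, 8.08 and 8.22 in shControl cells. It fell by 1.56 ± 0.11 without overlap, while KLF6, a Krüppel-like factor, rose by 1.07 ± 0.05. The 2 higher became 1 without shCDK8 replicate 3 or shControl replicates 1 or 3. Of 26 targets of hypoxia-inducible factors 10 (38.5%) fell and 2 (7.69%) rose, with a median of -0.15. Without single arrays 7 to 10 were called lower and 2 to 3 higher. Besides SLC2A3 and ALDOC, P4HA1, a collagen prolyl hydroxylase, changed by -0.73 ± 0.06 and EGLN3, an oxygen-sensing hydroxylase, by -0.67 ± 0.10. VEGFA and NDRG1 were not called (-0.07 and 0.03).

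**Figure D2:**
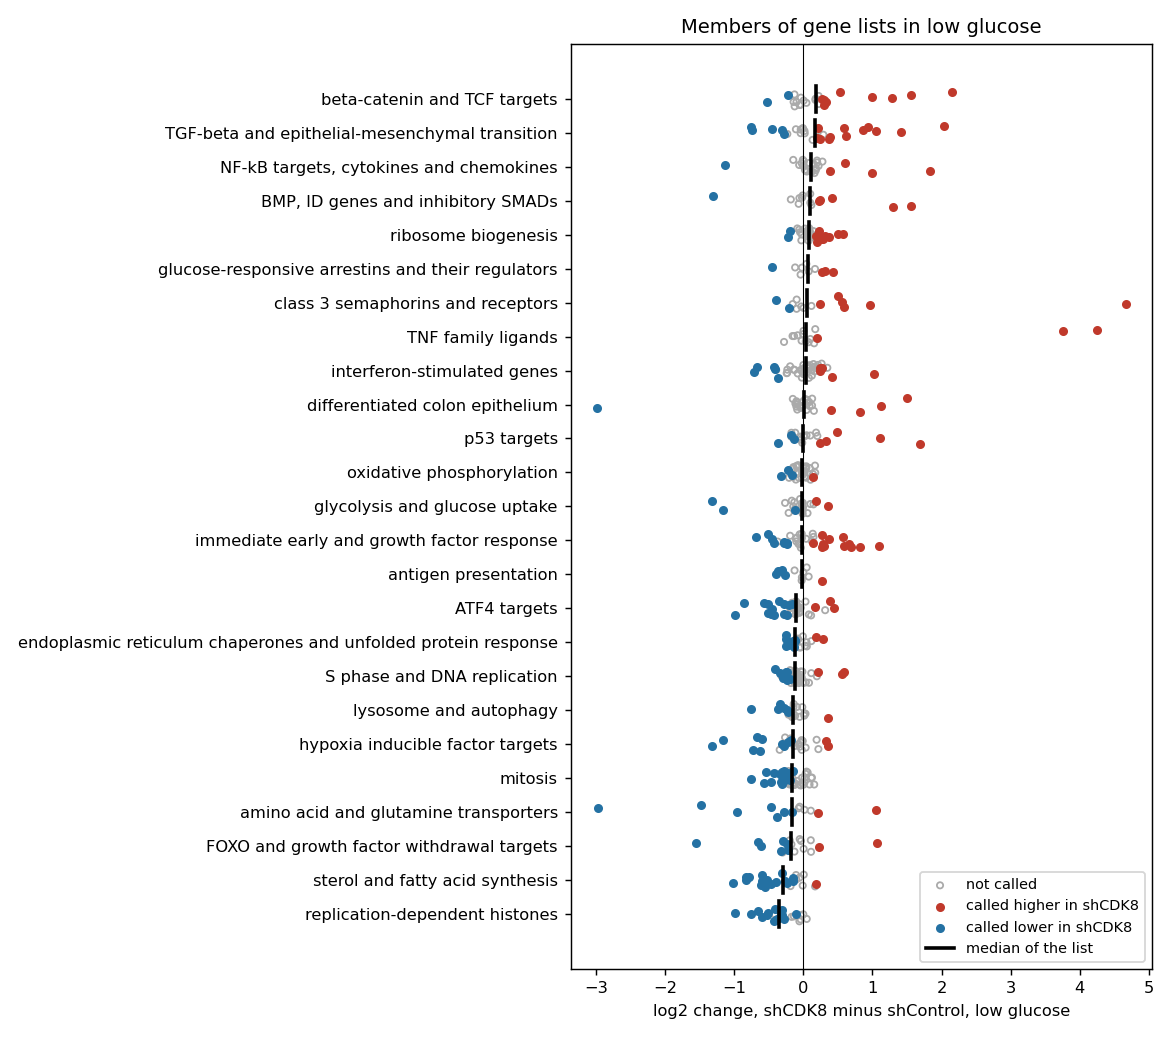
Change of the tested members of gene lists, as the log2 difference between shCDK8 and shControl cells in low glucose on the horizontal axis. Each point is a gene, red if called higher, blue if called lower and grey if not called, and black bars are medians, of which the histone list has the lowest at -0.36 and the sterol list -0.29.

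Cells copy their DNA in S phase, when replication-dependent histone genes are transcribed as well, and divide in mitosis. Of 43 genes of S phase and DNA replication 7 were called lower and 3 higher, against 10.2% and 12.1% of all genes, with a median of -0.12. PRIM1, a primase subunit, changed by -0.41 ± 0.09 and TK1, thymidine kinase, by -0.34 ± 0.05. CCNE1, a cyclin that drives entry into S phase, read 9.70, 9.60 and 9.77 in shCDK8 cells, against 9.06, 9.10 and 9.15 in shControl cells. It was higher in every shCDK8 array, by 0.59 ± 0.05, and its relative CCNE2 rose by 0.56 ± 0.11. In shControl cells 41 of the 43 were lower in low than in high glucose, against 17.3% of all genes. In shCDK8 cells in low glucose 35 of the 43 were lower than in shCDK19 cells, against 11.2% of all genes.

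Of 43 mitotic genes 16 (37.2%) fell, 0 rose and 27 were not called, against 10.2% of all genes lower and 12.1% higher, with a median of -0.16. Without single arrays 11 to 16 were called lower and 0 higher, with 11 lower without shControl replicate 1. CDC25C, the phosphatase that switches on CDK1, read 7.52, 7.52 and 7.46 in shCDK8 cells, against 8.37, 8.11 and 8.30 in shControl cells. Its shCDK8 arrays were all lower, by -0.76 ± 0.07 (limma, adjusted p = 3.3e-05). HMMR, a spindle protein, changed by -0.56 ± 0.06, and CDK1, the mitotic kinase itself, by -0.54 ± 0.10. PLK1, AURKA and CCNB1 were not called (0.06, 0.02 and 0.00). In shControl cells 40 of the 43 were lower in low than in high glucose, against 17.3% of all genes.

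Of 24 measured replication-dependent histone genes 15 fell and 0 rose, with a median of -0.36, against 10.2% of all genes called lower. H2BC7, a gene for histone H2B, read 8.42, 8.50 and 8.23 in shCDK8 cells in low glucose, against 9.42, 9.34 and 9.37 in shControl cells in low glucose and 9.77, 9.93 and 10.03 in shControl cells in high glucose. The shCDK8 arrays were below both sets of shControl arrays, and differed from those in low glucose by -0.99 ± 0.08 (limma, adjusted p = 1.62e-05). H2BC14, another H2B gene, read 10.87, 10.85 and 11.02 in shCDK8 cells in low glucose, against 11.69, 11.72 and 11.58 in shControl cells in low glucose and 12.98, 12.99 and 13.09 in shControl cells in high glucose. The 3 sets did not overlap, and the difference between the lines in low glucose was -0.75 ± 0.06. H4C4 changed by -0.66 ± 0.05 and H4C3 by -0.60. Members that were not called included H2BC3 (-0.06) and H1-5 (0.05), and H2AC8 lay at the floor in both groups. Histone genes are near-identical copies of each other, so the level of a single one is uncertain.

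The promoters of H2BC7 and H2BC14 are shown because most promoters of H2A and H2B genes shared the octamer ATTTGCAT (either strand). This octamer, known as a binding site of OCT1, was added to the motifs after the histone genes had been seen. It was in 12 of 23 histone promoters (52.2%) and in 1.62% of all promoters. The windows of the H1, H3 and H4 genes on the list lacked it, and so did that of H2BC5. Sequences are from RefSeq, GRCh38.p14, plus strand, with the octamer in capitals, at chr6:26199266-26199565 for H2BC7 and chr6:27814772-27815071 for H2BC14.
H2BC7: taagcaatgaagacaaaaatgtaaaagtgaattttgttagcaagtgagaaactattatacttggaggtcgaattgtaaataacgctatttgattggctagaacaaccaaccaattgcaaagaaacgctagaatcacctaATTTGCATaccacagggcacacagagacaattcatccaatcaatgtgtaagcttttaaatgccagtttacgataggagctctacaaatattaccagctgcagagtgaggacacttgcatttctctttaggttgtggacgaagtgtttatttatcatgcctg
H2BC14: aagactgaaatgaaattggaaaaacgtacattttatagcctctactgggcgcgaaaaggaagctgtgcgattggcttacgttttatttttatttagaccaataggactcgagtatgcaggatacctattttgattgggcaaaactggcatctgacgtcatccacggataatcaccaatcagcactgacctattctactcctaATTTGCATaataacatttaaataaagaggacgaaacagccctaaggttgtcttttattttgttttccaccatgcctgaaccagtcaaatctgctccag
The window of H2BC14 overlaps that of H2AC14, which is transcribed the other way. Those of H2BC4 and H2AC6 overlap in the same manner. In each of these pairs the same octamer was counted for both genes. Histone promoters with the octamer held genes that fell, such as H2BC4 (-0.53) and H2AC4 (-0.51), and genes that were not called, such as H2BC3 and H2BC9 (-0.04). Histone genes whose promoter window lacks it fell too, such as H4C4.

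Of 16 G1 cyclins, their kinases and inhibitors 2 (12.5%) rose and 3 (18.8%) fell, against 12.1% and 10.2% of all genes. CDK6, a kinase of G1, rose by 0.87 ± 0.10 and MYC by 0.30 ± 0.05, while CDKN2B, an inhibitor of G1 kinases, changed by -0.44 ± 0.10 and CDKN1B by -0.25 ± 0.05. Of 22 p53 targets 5 (22.7%) were called higher and 3 (13.6%) lower. PLK2, a polo-like kinase, read 11.11, 11.21 and 11.11 in shCDK8 cells, against 9.51, 9.33 and 9.53 in shControl cells. It rose by 1.69 ± 0.06 with no overlap, and SERPINB5, the serpin maspin, by 1.11 ± 0.06. CDKN1A and MDM2, the best known targets of p53, were not called (-0.12 and -0.02). The p53 counts without 1 array ranged over 3 to 5 higher and 1 to 3 lower, with 3 higher without shCDK8 replicates 1 or 2 or shControl replicates 1 or 2, and 1 lower without shCDK8 replicates 1, 2 or 3 or shControl replicate 1.

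Of 31 genes of ribosome biogenesis 9 (29%) were called higher and 2 lower, against 12.1% and 10.2% of all genes, with a median of 0.09. The 2 lower became 0 without shControl replicate 2, and 1 without shCDK8 replicates 1 or 3 or shControl replicates 1 or 3. RRP9, which binds the U3 nucleolar RNA, read 10.83, 10.59 and 10.67 in shCDK8 cells, against 10.21, 10.11 and 10.07 in shControl cells. The groups did not overlap, and the rise was 0.57 ± 0.07. BOP1, of the complex that matures the large subunit, rose by 0.51 ± 0.07 and UTP20, of the small subunit processome, by 0.38 ± 0.05. Of 23 ribosomal protein genes 1 was called higher and 0 lower. 0 were called higher without shCDK8 replicates 2 or 3 or shControl replicates 1 or 3, and 1 was called lower without shControl replicate 3.

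**Figure D3:**
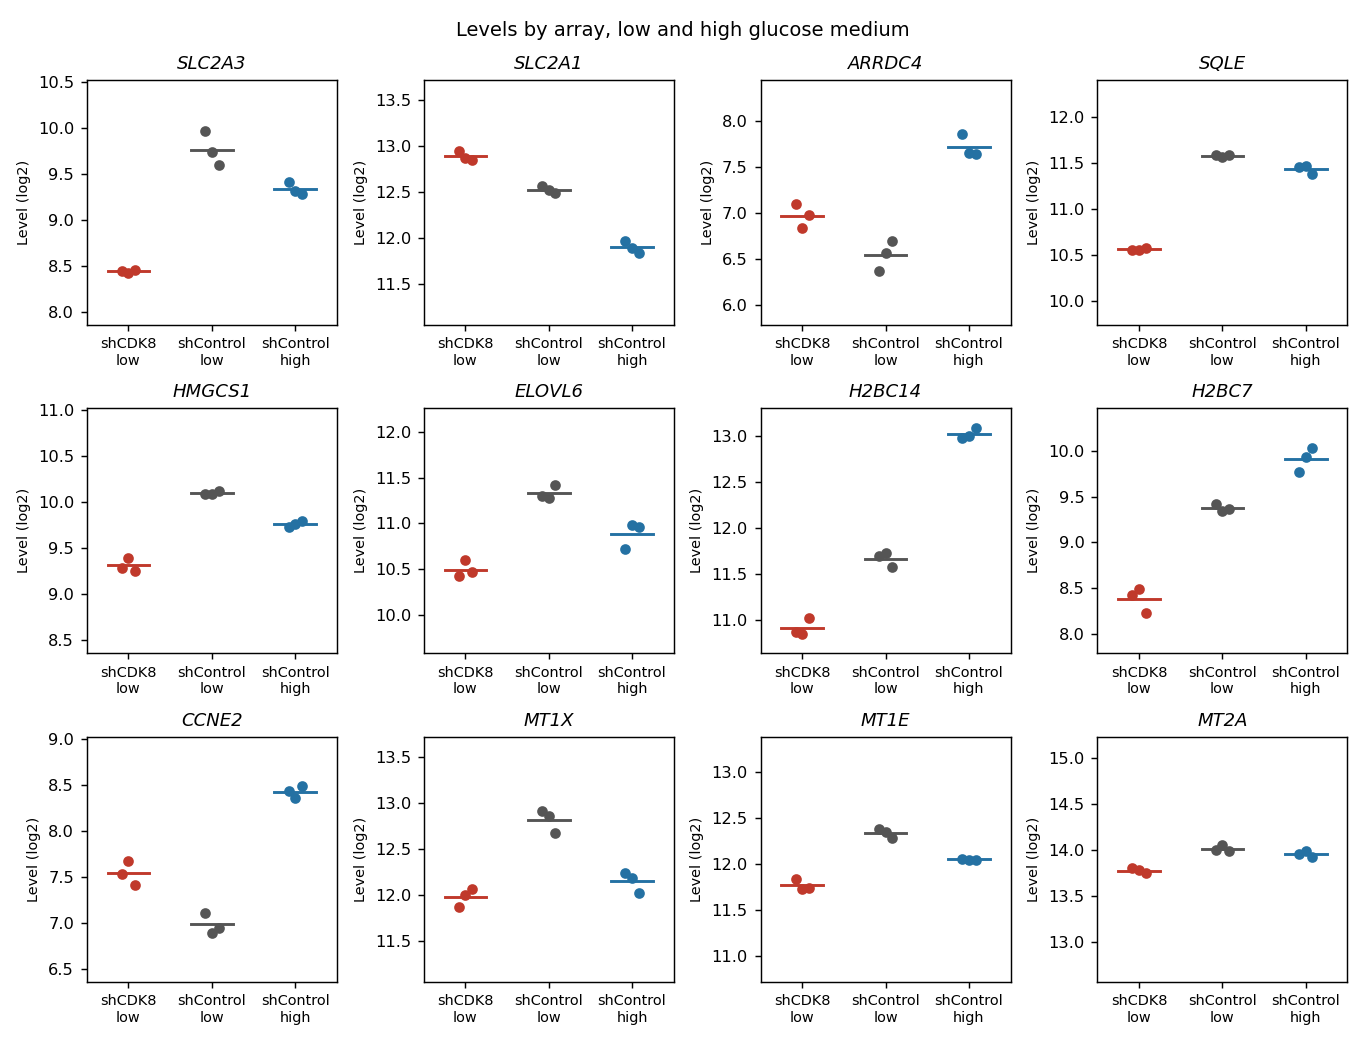
Deposited log2 values of 12 genes on the vertical axis in shCDK8 cells in low glucose, shControl cells in low glucose and shControl cells in high glucose. Points are arrays, 3 per group, and lines are means, and H2BC14 lies at 10.85 to 11.02 in shCDK8 cells, 11.58 to 11.72 in shControl cells in low glucose and 12.98 to 13.09 in shControl cells in high glucose.

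Signals from Wnt, BMP, TGF-beta and growth factors meet Mediator through their transcription factors. HCT116 cells carry an activating mutation of beta-catenin. Of 24 beta-catenin and TCF targets 9 rose and 2 fell, with a median change of 0.18, against 12.1% of all genes called higher. BMP4, a bone morphogenetic protein, read 12.50 in all 3 shCDK8 arrays, against 10.95, 10.93 and 10.95 in shControl cells. The arrays of each group were nearly equal, and the groups were 1.56 ± 0.04 or 2.95-fold apart (limma, adjusted p = 3.21e-09). RNF43, a ligase that removes Wnt receptors, read 10.10, 10.10 and 10.09 in shCDK8 cells, against 8.85, 8.78 and 8.82 in shControl cells. It rose by 1.28 ± 0.04. SOX9, a factor of crypt progenitors, rose by 0.99 ± 0.07. AXIN2, the target most often used to read the pathway, rose by 0.30, while LGR5, NKD1 and LEF1 were not called (0.05, 0.17 and 0.18). EPHB3, a receptor that sorts crypt cells, changed by -0.52. In shControl cells BMP4 and RNF43 were lower in low than in high glucose, by -0.65 and -0.81.

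Of 14 BMP pathway genes, ID genes and inhibitory SMADs 5 (35.7%) rose and 1 (7.14%) fell, against 12.1% and 10.2% of all genes. BAMBI, a decoy receptor, read 8.69, 8.57 and 8.62 in shCDK8 cells in low glucose, against 7.35, 7.38 and 7.24 in shControl cells in low glucose and 8.87, 8.66 and 8.65 in shControl cells in high glucose. The shCDK8 arrays were above the shControl arrays in low glucose by 1.30 ± 0.07, and overlapped those in high glucose. ID2, an inhibitor of basic helix-loop-helix factors, fell by 1.30 ± 0.08, with 9.12, 9.42 and 9.28 in shCDK8 cells, against 10.43, 10.67 and 10.62 in shControl cells. ID1 rose by 0.23 and ID3 was not called (0.10), so the ID genes did not move as a group.

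Of 28 genes of TGF-beta and epithelial-mesenchymal transition 12 (42.9%) rose and 5 (17.9%) fell, against 12.1% and 10.2% of all genes. Their median change was 0.17. Without single arrays 8 to 12 were called higher, with 8 without shCDK8 replicate 2 or shControl replicates 2 or 3. Besides SNAI2, TGFB2, a TGF-beta ligand, read 7.84, 8.10 and 7.85 in shCDK8 cells, against 6.63, 6.43 and 6.48 in shControl cells. Its groups were apart by 1.42 ± 0.08. SPARC, a matricellular protein, rose by 1.05 ± 0.11 and TAGLN, an actin-binding protein of smooth muscle, by 0.94 ± 0.09. TGFB1 and SNAI1 changed the other way, by -0.76 and -0.31. CDH1, the epithelial cadherin whose loss marks the transition, was not called (-0.11), nor were CDH2 (-0.04) and VIM (0.21).

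Of 35 immediate early and growth factor response genes 12 (34.3%) rose and 8 (22.9%) fell, against 12.1% and 10.2% of all genes. DUSP4, a phosphatase of MAP kinases, rose by 1.09 ± 0.06, KLF4, a factor of differentiated epithelium, by 0.82 ± 0.10, and SPRY2, a feedback inhibitor of receptor tyrosine kinases, by 0.69 ± 0.08. EGR1, the serum-responsive zinc finger factor, read 10.69, 10.71 and 10.72 in shCDK8 cells, against 11.48, 11.35 and 11.34 in shControl cells. It fell by 0.68 ± 0.04, with no overlap, and JUNB changed by -0.52. FOS was not called (-0.10).

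Of 27 targets of NF-kB, cytokines and chemokines 4 (14.8%) rose and 1 (3.7%) fell. Over all genes 12.1% were called higher, which is close to this share, and 10.2% lower. LCN2, the siderophore-binding protein lipocalin 2, read 9.37, 9.45 and 9.57 in shCDK8 cells, against 7.58, 7.77 and 7.54 in shControl cells. It rose by 1.83 ± 0.09, and ICAM1, a leukocyte adhesion receptor, by 1.00 ± 0.09. IL18, an epithelial cytokine, changed by -1.13 ± 0.10. The chemokine genes CXCL1, CXCL2 and CXCL8 were not called (0.11, -0.02 and 0.20). Of 44 interferon-stimulated genes 5 (11.4%) were called higher and 5 (11.4%) lower, shares close to those of all genes. IFI35 rose by 1.03 ± 0.05 and IFI6 changed by -0.71 ± 0.09. Without each single array of the comparison in turn, 3 interferon-stimulated genes were called higher. Of 11 antigen presentation genes 1 (9.09%) was called higher and 4 (36.4%) lower. HLA-DMA, a chaperone of class II molecules, changed by -0.39 ± 0.06 and B2M, the light chain of class I, by -0.36 ± 0.06. 1 was called higher without shControl replicate 2, and 0 without any other single array.

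Of 24 genes of differentiated colon epithelium 4 (16.7%) rose and 1 (4.17%) fell, against 12.1% and 10.2% of all genes. CEACAM1, an adhesion molecule of the apical surface, was 2.83-fold higher and CA2, a carbonic anhydrase, by 1.12 ± 0.07, while the one that fell was DPP4. MUC2, CDX1 and KRT20 were not called (-0.09, -0.10 and -0.04). Of 14 class 3 semaphorins and their receptors 6 (42.9%) rose and 2 (14.3%) fell. NRP2, a neuropilin, rose by 0.96 ± 0.11 and the co-receptor PLXNA1 by 0.59 ± 0.06. The 2 lower became 1 without any 1 array but shControl replicate 2. Of 6 APOBEC3 cytidine deaminases 3 rose and 0 fell. APOBEC3G rose by 1.30 ± 0.10 and APOBEC3B by 0.73 ± 0.09, though the APOBEC3 genes are close copies that probes may not separate. Of 10 genes of the HOXB cluster, which sets position along the body axis, 0 rose and 3 fell, with HOXB8 at -0.51 ± 0.06.

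Metallothioneins, small cysteine-rich proteins that bind zinc and copper and are induced by metals through the factor MTF1, moved together. They were noticed after their values had been seen. Of 13 measured MT1 and MT2 genes 13 were called lower and 0 higher, against 10.2% and 12.1% of all genes. Their changes ran from -0.87 to -0.24, with a median of -0.54. MT1X read 11.87, 12.00 and 12.06 in shCDK8 cells in low glucose, against 12.91, 12.86 and 12.67 in shControl cells in low glucose and 12.23, 12.18 and 12.03 in shControl cells in high glucose. The shCDK8 arrays were below the shControl arrays in low glucose by -0.84 ± 0.08, and overlapped those in high glucose. MT1E read 11.83, 11.72 and 11.74 in shCDK8 cells in low glucose, against 12.38, 12.34 and 12.28 in shControl cells in low glucose and 12.06, 12.04 and 12.04 in shControl cells in high glucose. It was lowest in shCDK8 cells, by -0.57 ± 0.04 against shControl cells in low glucose. MT2A, another of these genes, averaged 13.77 in shCDK8 cells and 14.01 in shControl cells, close to the ceiling, a change of -0.24 ± 0.04. In shControl cells 11 of the 13 were higher in low than in high glucose and 0 were lower, against 13.9% and 17.3% of all genes. All 13 were lower in shCDK8 than in shCDK19 cells in low glucose, against 11.2% of all genes. These genes are near-identical copies, so the 13 are not 13 separate observations.

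Metallothionein promoters of MT1X and MT2A are shown because they carry the core of the metal response element, TGCGCNC or TGCACNC on either strand, in several copies. These letters were added to the motifs after the genes had been seen. The sequences are from RefSeq, GRCh38.p14, plus strand, at chr16:56682220-56682519 for MT1X and chr16:56608334-56608633 for MT2A, with every match in capitals.
MT1X: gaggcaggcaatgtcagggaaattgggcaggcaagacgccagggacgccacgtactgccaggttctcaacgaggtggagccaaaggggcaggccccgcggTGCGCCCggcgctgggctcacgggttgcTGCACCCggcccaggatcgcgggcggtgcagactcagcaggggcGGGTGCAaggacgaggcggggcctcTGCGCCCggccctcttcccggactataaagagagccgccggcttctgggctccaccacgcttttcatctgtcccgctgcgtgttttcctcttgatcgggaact
MT2A: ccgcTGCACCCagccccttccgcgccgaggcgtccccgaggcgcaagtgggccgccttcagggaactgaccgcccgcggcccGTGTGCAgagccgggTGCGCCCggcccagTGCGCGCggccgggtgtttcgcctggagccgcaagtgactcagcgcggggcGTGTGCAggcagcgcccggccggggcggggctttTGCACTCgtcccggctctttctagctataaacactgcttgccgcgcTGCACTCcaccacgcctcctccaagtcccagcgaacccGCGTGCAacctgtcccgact
MT1X held 4 matches and MT2A 8. Of 4 metallothionein promoters matched to RefSeq, 4 held TGCACNC and 3 held TGCGCNC, against 11.8% and 26.4% of all promoters. A match is a run of letters and says nothing of binding.

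Promoters of the genes that changed at least 2-fold were searched for the remaining motifs on both strands. The E-box CACGTG was in 9.4% of 117 promoters of genes at least 2-fold higher, in 13.1% of 61 promoters of genes at least 2-fold lower and in 8.88% of all promoters. The AP-1 element TGANTCA was in 7.69%, 8.2% and 5.58% of these sets, and the NF-kB letters GGGNNTTCC in 8.55%, 6.56% and 7.42%. The TCF letters ATCAAAG were in 2.56% of the higher set, 0% of the lower set and 2.02% of all promoters. The core of the hypoxia response element, GCGTG, was in 49.6% of the higher set, 42.6% of the lower set and 44.7% of all promoters. The letters TGATGNAA were in 0.855%, 3.28% and 2.54%, and TTTGAA in 8.55%, 16.4% and 11.9% of the higher set, the lower set and all promoters.

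By chromosome, the share of genes called higher was largest on chromosome 22, with 95 of 423 genes or 22.5%, against 12.1% of all genes, while 7.09% of its genes were called lower. In normal growth 15.1% of the genes of chromosome 22 were higher in shCDK8 than in shControl cells, against 11.4% of all genes. Chromosome 10 had the largest share there, 15.8%. In low glucose 21.5% of the genes of chromosome 22 were higher in shCDK8 than in shCDK19 cells, against 14.7% of all genes. Next to chromosome 22 in the main comparison was chromosome 18, with 45 of 264 genes called higher. The share called lower was largest on chromosome 6, at 13.8%. Gene order was taken from the RefSeq table of GRCh38.p14. Neighbours changed together at a few places. On chromosome 10 the adjacent genes MKX, ODAD2 and MPP7 were all at least 2-fold lower, with -1.53, -1.88 and -2.08. On chromosome 12 the neighbours KLRC4-KLRK1, KLRC3 and KLRC2, natural killer receptor genes that are near-identical copies, were higher by 1.57 ± 0.37, 1.77 ± 0.19 and 1.40 ± 0.11.

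Runs of 5 or more neighbours called in 1 direction at any size of change, a search added after the data had been seen, included 11 metallothionein genes on chromosome 16 from MT2A to MT1X, all lower. On chromosome 6 there was a run of 8 lower genes in the histone cluster from H1-2 to H2BC5. On chromosome 22 there were 2 runs of 8 higher genes, 1 from A4GALT to SCUBE1 and 1 from PANX2 to PLXNB2. The run from A4GALT holds TTLL1 (1.44), a tubulin glutamylase subunit, and BIK (1.06), a BH3-only inducer of apoptosis. On chromosome 11 a run of 6 lower genes from SWAP70 to IRAG1-AS1 holds ADM, the hypoxia-inducible peptide adrenomedullin.

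**Figure D4:**
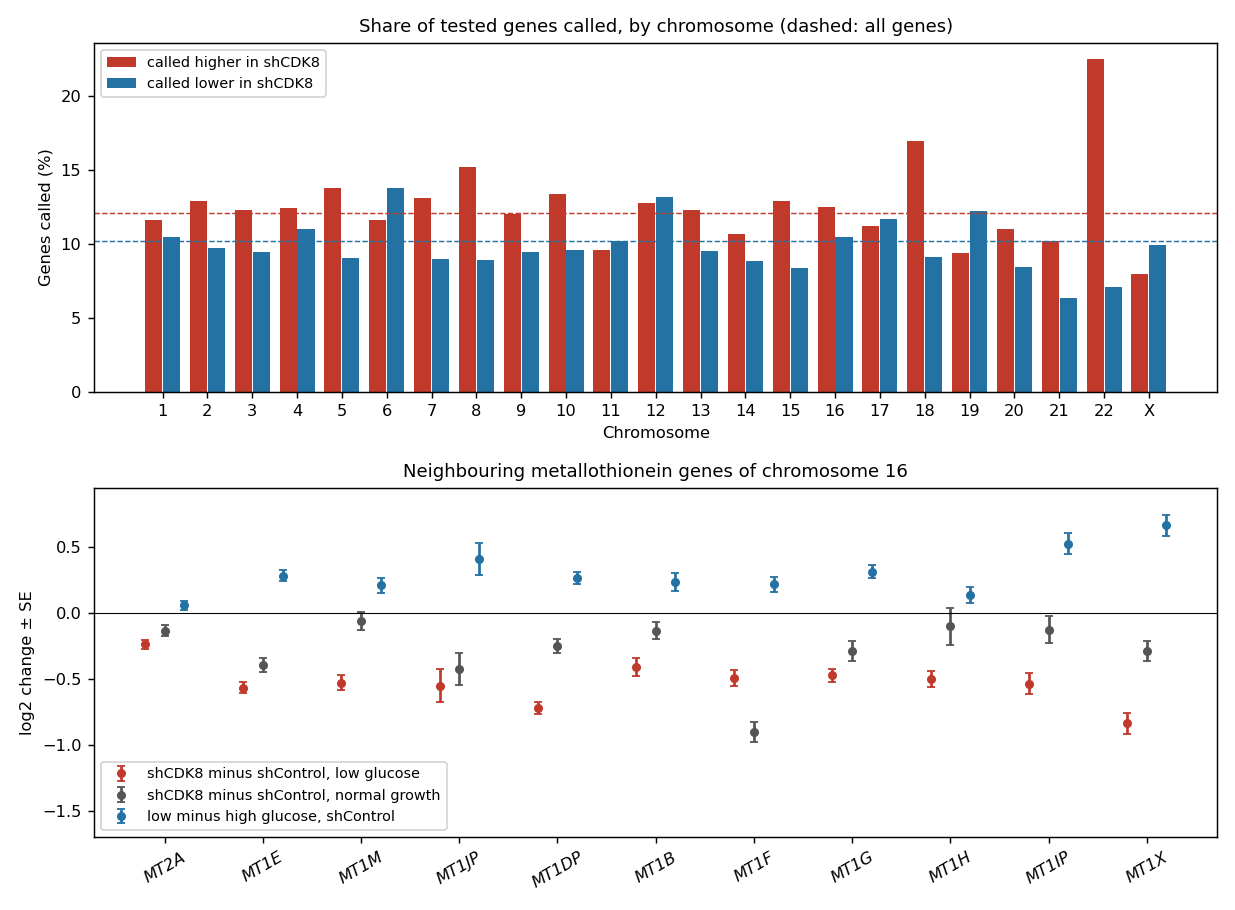
Upper panel, percent of the tested genes of each chromosome called higher (red) or lower (blue) in shCDK8 against shControl cells in low glucose, with dashed lines for all genes at 12.1% and 10.2%. Chromosome 22 reaches 22.5% higher. Lower panel, log2 change ± SE of the 11 neighbouring metallothionein genes of chromosome 16 for shCDK8 against shControl in low glucose, the same in normal growth, and shControl in low against high glucose.

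The same knockdown was also measured in cells in normal growth, with its own shControl arrays. There 2107 genes (11.4%) were higher and 2720 (14.8%) lower in shCDK8 cells, 208 (1.13%) and 122 (0.663%) of them by at least 2-fold. These calls came from the fit of all 35 arrays, and those in low glucose from the fit of 12 arrays, so the spreads behind them differ. With all 35 arrays sharing the spread, 3450 genes were called in low glucose. Genes called in both media in the same direction numbered 1973, which is 48.0% of the calls in low glucose and 40.9% of those in normal growth. Another 272 were called in opposite directions, 6.62% and 5.63% of the same calls. Across all genes the 2 effects correlated with Pearson r = 0.595 and Spearman rho = 0.404, as a description over 18404 genes that are not independent of each other. Of the 225 genes changed at least 2-fold in low glucose, 188 were called in the same direction in normal growth, 34 were not called there and 3 were called the other way. Medium and experiment differ between these arrays as well as glucose, and cannot be told apart.

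Several leading genes changed by similar amounts in both media. VSNL1 rose by 5.28 in low glucose and 5.12 in normal growth, and the effects did not differ past the threshold (adjusted p = 0.598). SEMA3A rose by 4.66 and 4.34, and TNFSF4 by 4.25 and 4.40. DPP4 changed by -2.98 and -2.56, SLC38A5 by -2.97 and -3.29, PRAF2 by -2.78 and -2.91, and BMP4 by 1.56 and 1.59. A p that misses the threshold does not show that the effects are equal.

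The difference of the effects itself was tested in a fit of all 35 arrays. The effect of the knockdown was higher in low glucose than in normal growth for 1431 genes (7.78%) and lower for 931 (5.06%), 2362 genes in all (12.8%), with a difference of at least 2-fold for 87 (0.473%) and 101 (0.549%). Without shCDK8 replicate 1 in normal growth the counts were 1252 higher and 1110 lower, and 2002 genes were shared with the calls from all arrays. Without shCDK8 replicate 2 in normal growth they were 1491 higher and 764 lower. TM4SF1 rose by 3.55 in low glucose and 0.51 in normal growth, a difference of 3.04 (limma, adjusted p = 2.01e-13). SLC5A1 rose by 2.88 and 0.34, EDA2R by 2.93 and 0.73, CALB2 by 3.15 and 1.00 and ARSJ by 2.84 and 0.65. For these genes the rise was at least 2 log2 units larger in low glucose. SLC2A3 changed by -1.32 in low glucose and 0.40 in normal growth, and SLC2A1 by 0.36 and 1.77, so both glucose transporter genes had a lower effect in low glucose, by -1.72 and -1.40. UTS2B changed by -2.56 in low glucose and -0.18 in normal growth. RAB25, a small GTPase of epithelial recycling endosomes, was not called in low glucose (-0.07) and changed by -2.33 in normal growth.

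In the other direction, LYZ, the secreted antibacterial enzyme lysozyme, read 6.79, 7.18 and 6.79 in shCDK8 cells in low glucose, against 5.57, 5.55 and 5.77 in shControl cells. It rose by 1.29 there but by 5.44 in normal growth, a difference of -4.15 and the largest in size. SPARC rose by 1.05 and 3.71, APOBEC3G by 1.30 and 3.74, TGFB2 by 1.42 and 3.63, and TNFSF18 by 3.76 and 6.09 in low glucose and in normal growth. SUSD2, a sushi domain membrane protein, changed by -0.31 in low glucose and 2.88 in normal growth. HLA-DPA1, a class II histocompatibility chain, changed by -0.76 and 1.77, and HOXB8 by -0.51 and 1.08. These last genes were called in opposite directions in the 2 media.

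Counts of called list members differed between the media as well. Over all genes 12.1% were called higher and 10.2% lower in low glucose, from the fit of 12 arrays. In normal growth these shares were 11.4% and 14.8%, from the fit of 35 arrays. The effect was called higher in low glucose for 7.78% of all genes and lower for 5.06%. Of the 43 genes of S phase and DNA replication, 7 were lower in low glucose and 40 in normal growth, with medians of -0.12 and -0.56, and for 25 of them the effect was called higher in low glucose. Of the 37 ATF4 targets 14 were lower in low glucose and 27 in normal growth, with 15 effects called higher and 1 lower. Of the 22 p53 targets 5 were higher in low glucose and 15 in normal growth, with 10 effects called lower in low glucose. Of the 10 HOXB genes 0 were higher in low glucose and 7 in normal growth, and 7 effects were called lower. Of the 24 histone genes 15 were lower in low glucose and 14 in normal growth, with 1 effect called different, and of the 24 sterol genes 16 and 11 were lower. Of the 28 genes of TGF-beta and epithelial-mesenchymal transition 12 were higher and 5 lower in each medium, and these are counts, which need not be the same genes. Metallothioneins were called lower for 13 genes in low glucose and 8 in normal growth.

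**Figure D5:**
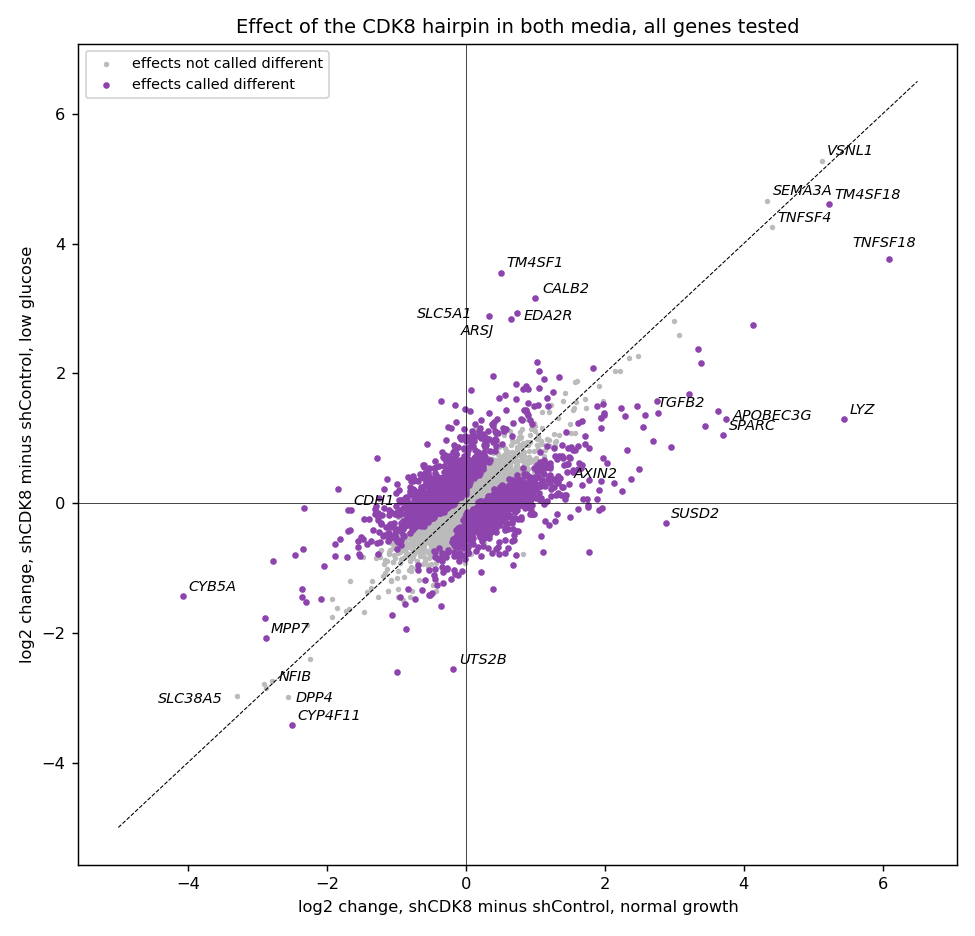
Log2 change of shCDK8 against shControl cells in normal growth (horizontal axis) and in low glucose (vertical axis) for all genes tested, with purple points where the 2 effects were called different (2362 genes). In low glucose and in normal growth VSNL1 rose by 5.28 and 5.12, near the diagonal, LYZ by 1.29 and 5.44, far below it, and TM4SF1 by 3.55 and 0.51, above it.

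Which changes separate the CDK8 line from the line with a hairpin against its paralogue was read from shCDK8 against shCDK19 cells in low glucose. CDK19 read 9.61, 9.93 and 9.84 in shCDK8 cells, against 8.35, 8.30 and 8.09 in shCDK19 cells. Its level in shCDK19 cells was 2.95-fold below that in shControl cells (-1.56 ± 0.09), so the transcript was reduced and still measured. Here 2709 genes (14.7%) were higher and 2069 (11.2%) lower in shCDK8 cells, 4778 in all (26%), with 103 (0.56%) and 108 (0.587%) at least 2-fold. This comparison shares the shCDK8 arrays with the main one. TNFSF4 was higher in shCDK8 than in shCDK19 cells by 4.05, TM4SF18 by 3.90, SEMA3A by 3.47 and TM4SF1 by 3.38, with every limma adjusted p under 0.05. PXDN, a peroxidase of the extracellular matrix, was higher by 2.85. DPP4 was lower by -3.59, SLC38A5 by -3.43, ZNF266 and SLC1A3 by -2.95 each, and RGS2 by -2.81.

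Other leading genes did not separate the lines in that way. VSNL1, which rose the most against shControl cells, was lower in shCDK8 than in shCDK19 cells (-0.52, limma, adjusted p = 0.00263), as was EHF (-0.73). TGFB2 and LCN2 were lower in shCDK8 than in shCDK19 cells as well, by -1.54 and -1.64, although both were higher than in shControl cells. FGF9 did not differ past the threshold (0.00, adjusted p = 0.993), nor did the sterol genes HMGCS1 (0.08) and INSIG1 (-0.02), while SQLE was lower by -0.62. Histone genes were lower in shCDK8 than in shCDK19 cells for 16 of 24 members and higher for 0, against 11.2% and 14.7% of all genes.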

How the data were processed

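Total RNA was hybridised to Affymetrix HuGene 1.0 ST arrays, 1 per sample. The authors deposited log2 values per probe cluster, and per the submitters' processing notes the tool was Partek. Its version, background correction and normalization are not stated there. All arrays share a floor and a ceiling, so differences of very dim or bright genes are compressed. Replicate numbers and groups came from the sample titles. Of 32321 clusters, 19158 carry 1 gene symbol in the platform annotation, 1388 several and 11775 none. The cluster with the highest mean was kept for each gene, which left 18404 genes.

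Genes were tested with limma 3.58.1 in R 4.3.3 (lmFit and eBayes on the deposited values, Benjamini-Hochberg over all genes, threshold 0.05). The 12 arrays of the glucose experiment gave the low glucose comparisons, and 35 arrays the comparison with normal growth. CDK8, whose cluster carries more than 1 symbol, was tested over all clusters. The fit was tested on simulated data for shCDK8 against shControl in low glucose: of 67 genes changed by 0.5 log2 units 80.6% were recovered, of 67 changed by 1 unit 94%, and of 66 changed by 2 units 100%, with 8 unchanged genes called among 18404. The changed genes were all of mid-range level, far fewer than those called in the data, and the noise was independent between genes. These rates therefore do not cover dim genes or noise shared between genes. The number of arrays limits the precision: the median standard error of a change was 0.079.

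Named were CDK8, CDK19, TXNIP and ARRDC4, the 20 highest and 20 lowest genes past the threshold whose groups did not overlap, the leading members of each of 40 gene lists, the 10 highest and 10 lowest differences of effects and the 5 highest and 5 lowest differences from shCDK19. Other list members, and metallothioneins, were chosen after their values were seen. The comparison, the lists and the tests were chosen with earlier results of these data known. Alternatives covered normalization, the arrays sharing the spread, moderation, dim genes, clusters per gene, the replicate block, array weights and leaving out each array. Promoters were RefSeq windows of 250 bases before to 50 after the start (GRCh38.p14), for 14228 genes matched by Entrez gene ID.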

Additional observations from a re-analysis of the deposited data

Results flagged for a closer look

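The knockdown effect was tested for a difference between low glucose and normal growth, and 2362 genes passed (limma over 35 arrays, Benjamini-Hochberg). Values below are log2 differences, the effect in low glucose minus the effect in normal growth. Medium and experiment differ between the arrays as well as glucose, and their parts in these differences cannot be told apart.

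The effect was higher in low glucose for TM4SF1 (3.04), CYB5A, an electron donor of the endoplasmic reticulum (2.64), SLC5A1 (2.54), RAB25 (2.26), EDA2R (2.20), ARSJ (2.19), CALB2 (2.15), SKAP2, an adaptor of Src family kinases (2.05), the tetraspanin TSPAN18 (1.97) and the myosin light chain MYL2 (1.92). CYB5A changed by -1.43 in low glucose and -4.08 in normal growth. MYL2 changed by 1.57 in low glucose and -0.35 in normal growth. Among the genes that led the comparison in low glucose, MPP7 (0.80) and MEF2C (1.12) also had a higher effect there.

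The effect was lower in low glucose for LYZ (-4.15), SUSD2 (-3.19), SPARC (-2.66), HLA-DPA1 (-2.53), APOBEC3G (-2.44), UTS2B (-2.39), TNFSF18 (-2.33), ZBED2 (-2.25), TGFB2 (-2.22) and PMEPA1, a feedback inhibitor of TGF-beta signalling (-2.08). PMEPA1 changed by 0.87 in low glucose and 2.95 in normal growth. Smaller differences in this direction were found for TM4SF18 (-0.62), EHF (-1.39), GRIN2B (-0.97), CYP4F11 (-0.93), LIPG (-1.61), ZNF266 (-1.08) and FXYD3 (-0.66).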

How the results depend on the processing

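The count of 4107 genes ranged from 3450 to 4521 over the other settings and from 3227 to 3667 without single arrays. For shCDK8 against shCDK19 the count of 4778 ranged from 3326 to 6168, and from 3914 to 4918 without single arrays. For the difference of effects the count of 2362 ranged from 2190 to 2688 over the other settings, except that array weights gave 5965, the cause of which was not tested, and from 1879 to 2362 without single arrays. CDK8 changed by -2.24 to -2.01 without single arrays. CDK19, which was not called, ranged from -0.083 to 0.079, with positive values without shCDK8 replicate 1 (0.079), shControl replicate 1 (0.0020) and shControl replicate 3 (0.0055). Of 226 named genes, 39, CDK19 among them, changed call or direction under at least 1 of 25 settings. With each array's median subtracted, 2003 genes were higher and 2096 lower. Same-numbered shCDK8 and shControl arrays did not go together (r of their deviations from -0.11 to -0.015 over 3 pairs). With shCDK19 the same-numbered r was 0.015, 0.31 and 0.27, where other-numbered pairs ranged from -0.30 to 0.042. Replicates 2 and 3 of shCDK8 and shCDK19 thus went together by number, and the cause was not tested. With a replicate block the counts were 4060 for the main comparison, 2279 for the difference of effects and 4762 against shCDK19. Signal limits 153 genes at the floor on all 12 arrays.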
